A study of Mus musculus with 6 samples.

Results

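The 10 genes described here encode enzymes that build, desaturate and elongate fatty acids in mouse cells: Acly, Acaca, Fasn, Scd1, Scd2, Fads1, Fads2, Elovl1, Elovl5 and Elovl6. They were chosen by gene name, with earlier results of these data known. All 10 were found among the 54532 genes of the deposited count table. RNA was sequenced from regulatory T (Treg) cells, T helper 17 (Th17) cells and naive T cells, with 2 libraries of each type and 6 in all. Every library carries the genotype WT, the treatment entry "no" and the tissue entry thymus. These entries name no allele or agent that differs between the groups. Strain, age, the number of animals behind a library, and whether Treg and Th17 cells were isolated or made in culture are not stated. Any difference in culture conditions between the types therefore cannot be told apart from cell type. No label ties the replicate libraries to different mice or dishes, so the p-values measure the spread between libraries, which may be technical.

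Fatty acid synthesis starts when ATP-citrate lyase (Acly) splits citrate into cytosolic acetyl-CoA, which acetyl-CoA carboxylase 1 (Acaca) turns into malonyl-CoA and fatty acid synthase (Fasn) assembles into palmitate. Stearoyl-CoA desaturases (Scd1, Scd2) then make monounsaturated fatty acids, while the front-end desaturases Fads1 and Fads2 and the elongase Elovl5 act on polyunsaturated ones. Elovl6 extends palmitate towards stearate, and Elovl1 makes very long saturated and monounsaturated chains. Many of these genes are textbook targets of the sterol regulatory element binding proteins, and T cells are known to raise lipid synthesis when they are activated and grow.

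The promoters of 4 members are shown because these genes span the patterns found below: Fasn was higher in Treg and Th17 cells than in naive cells, Fads2 was high in Th17 cells, Elovl6 was highest in Treg cells and Elovl5 was highest in naive cells. Each is the 250 bases before the gene start in RefSeq on GRCm38.p6 (mm10), read 5′ to 3′ on the gene's strand. They lie at chr11:120824548-120824797 on the minus strand (Fasn), chr19:10101504-10101753 on the minus strand (Fads2), chr9:77917115-77917364 on the plus strand (Elovl5) and chr3:129532136-129532385 on the plus strand (Elovl6). Capitals mark matches on either strand to the motifs searched, and the 8 capitals in a row in Fasn are 2 overlapping CCAAT matches.
Fasn: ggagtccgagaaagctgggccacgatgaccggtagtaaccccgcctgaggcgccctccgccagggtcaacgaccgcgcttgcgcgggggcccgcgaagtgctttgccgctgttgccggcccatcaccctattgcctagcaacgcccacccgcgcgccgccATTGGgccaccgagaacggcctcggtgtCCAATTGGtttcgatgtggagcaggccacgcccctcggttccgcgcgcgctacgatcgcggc
Fads2: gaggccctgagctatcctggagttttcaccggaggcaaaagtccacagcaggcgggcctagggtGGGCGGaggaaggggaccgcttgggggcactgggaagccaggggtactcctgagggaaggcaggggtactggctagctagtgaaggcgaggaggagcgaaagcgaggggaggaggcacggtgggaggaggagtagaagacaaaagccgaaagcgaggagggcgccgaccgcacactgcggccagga
Elovl5: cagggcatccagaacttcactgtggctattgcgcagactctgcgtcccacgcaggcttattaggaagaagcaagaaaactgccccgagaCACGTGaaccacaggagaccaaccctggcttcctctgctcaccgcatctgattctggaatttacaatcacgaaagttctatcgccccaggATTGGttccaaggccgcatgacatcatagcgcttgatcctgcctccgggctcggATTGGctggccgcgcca
Elovl6: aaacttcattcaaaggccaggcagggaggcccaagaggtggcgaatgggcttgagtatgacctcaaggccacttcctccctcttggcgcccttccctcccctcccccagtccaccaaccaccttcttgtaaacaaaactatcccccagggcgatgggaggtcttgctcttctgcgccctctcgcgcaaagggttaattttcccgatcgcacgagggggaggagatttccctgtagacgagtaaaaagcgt
Windows were matched by symbol for 7 of the 10 members, with 8 windows in all; Scd1, Scd2 and Fads1 had none.

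The motifs searched on both strands were the sterol regulatory element in the form TCACNCCAC, in which N is any base, the E-box CACGTG, the CCAAT box CCAAT and the GC box GGGCGG. The sterol element was in 0 of the 8 member windows, against 1.05% of all 32851 promoter windows of the same table and length. The CCAAT box was in 3 member windows against 33.8% of all windows, the GC box in 4 against 32.7%, and the E-box in 1 against 6.02%. These counts include an Acaca window (chr11:84195188-84195437) and an Elovl1 window (chr4:118429451-118429700) that lie inside the deposited spans of their genes. They may therefore not be the main promoters of these genes. In the windows shown, Fasn held 3 CCAAT matches between bases 90 and 55 before the start. Elovl5 held 2 CCAAT matches, with their first bases 71 and 17 before the start, and an E-box that begins at base 161. Fads2 held a GC box alone, and Elovl6 held none of the motifs. A match is a run of letters and not a shown binding site, and no match says only that these letters are not in this window.

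Total counts ranged from 16458939 to 17901331, so depth was similar in all libraries. Levels are CPM, library-normalised read counts, on TMM-scaled library sizes. The labels were checked with Foxp3, the Treg transcription factor, which had 1009 CPM in both Treg libraries, 0.910 and 0.484 CPM in Th17 libraries and 15.1 and 13.5 CPM in naive libraries. Il17a, the Th17 cytokine, was at 0 in Treg and naive libraries and at 331 and 500 CPM in Th17 libraries. Thymus is the tissue given, and of the 5 immature thymocyte markers Rag1, Rag2 and Ptcra were at 0 in both naive libraries, while Dntt had 8.21 and 11.6 CPM and Cd1d1 had 49.1 and 62.5 CPM there. Both Dntt and Cd1d1 were higher in naive than in Treg and Th17 libraries. Rag1 went the other way, with 2.40 and 2.24 CPM in Treg and 0.321 and 0 CPM in Th17 libraries. Rag2 and Ptcra had at most 0.229 CPM in any library.

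All 10 members passed the filter on low counts, and Treg and Th17 libraries both held more of their RNA than naive libraries. Summed over the members, Treg libraries 1 and 5 had 1862 and 2229 CPM, Th17 libraries 1 and 5 had 4164 and 3772 CPM, and naive libraries 1 and 5 had 750.0 and 699 CPM. The 3 types did not overlap in this sum. Scd2 alone made up 51.3% and 56.4% of it in the Th17 libraries, 12.7% and 19.1% in Treg libraries and 8.97% and 9.96% in naive libraries. Without Scd2, the sums were 1625 and 1802 CPM in Treg libraries, 2029 and 1645 CPM in Th17 libraries and 683 and 630 CPM in naive libraries, so the Treg and Th17 ranges overlapped. In bulk RNA, fewer cells of a kind and less RNA per cell cannot be told apart.

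**Figure D1:**
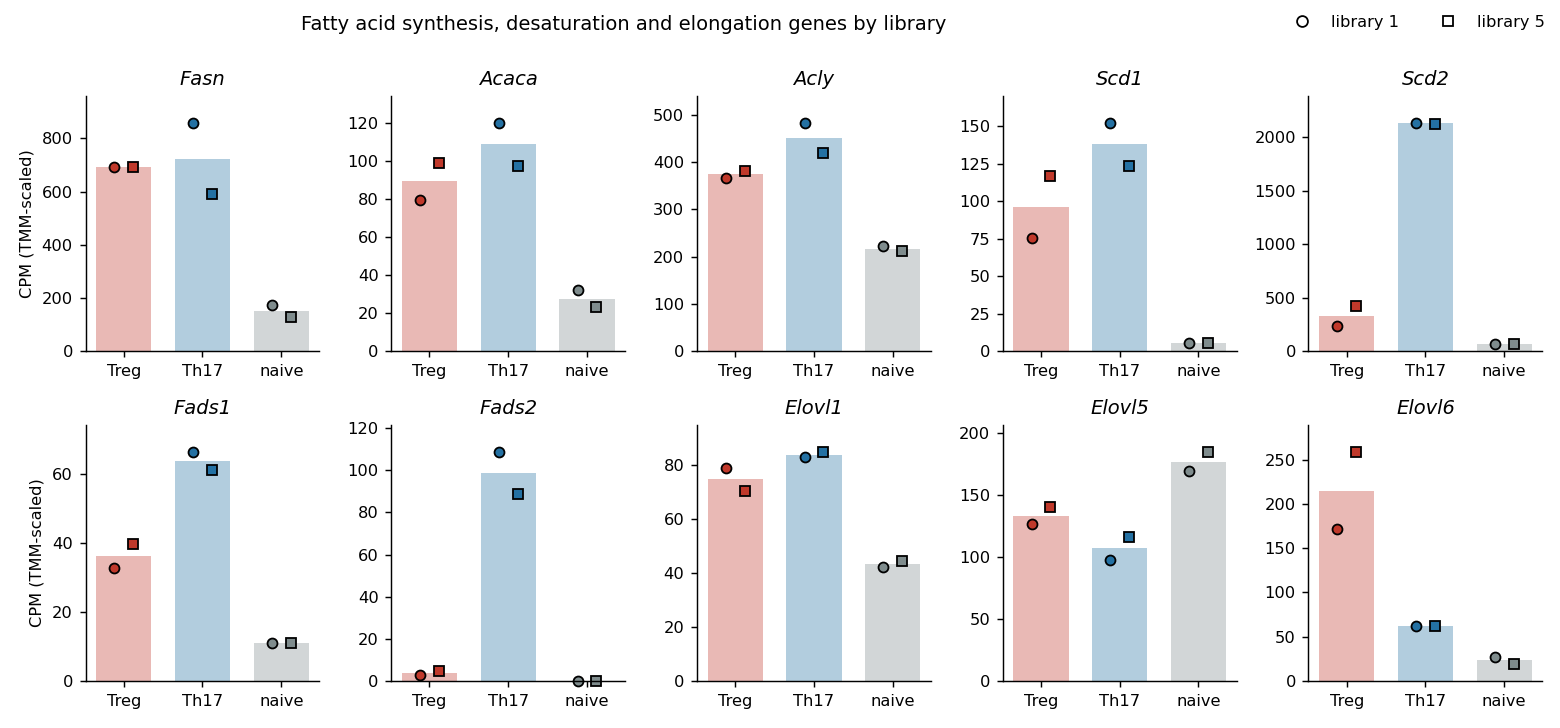
Level of each of the 10 genes in CPM (y axis, linear, from 0, a separate scale per panel) in Treg, Th17 and naive cells. Bars are means of 2 libraries, circles are library 1 and squares library 5; Scd2 and Fads2 stand highest in Th17, Elovl6 in Treg and Elovl5 in naive cells.

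Calls rest on edgeR's quasi-likelihood test with Benjamini-Hochberg adjustment over 15543 tested genes, at an adjusted p under 0.05. All 10 members were called in Treg against naive cells and all 10 in Th17 against naive cells, where 43.4% and 57.7% of all tested genes were called. In both comparisons the libraries of the types did not overlap for any member, which also held for 71.7% of all tested genes in Treg and 78.8% in Th17 against naive cells. Against naive cells, Treg cells had 9 of the 10 members higher, where 23.6% of all tested genes were called higher, and 1 lower, where 19.9% were. Against naive cells, Th17 cells likewise had 9 higher, where 29.3% of all tested genes were, and 1 lower, where 28.4% were. The member called lower was Elovl5 in both, with an adjusted p of 0.0489 in Treg cells. The 2 comparisons share the naive libraries, and 16.7% of all tested genes were called higher in both. The members' median log2 fold change was 1.95 in Treg and 2.11 in Th17 against naive cells, beside -0.0046 and -0.03 over all tested genes. Because the members were chosen with earlier results of these data known, these counts and medians are descriptions.

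Treg and Th17 cells differed from each other in 5 of the 10 members, while 38.4% of all tested genes were called. Scd1, Scd2, Fads1 and Fads2, the 4 desaturases, were called lower in Treg than in Th17 cells, where 19.4% of all tested genes were called lower, with Scd1 close to the threshold (adjusted p = 0.0470). Elovl6 was called higher, where 19.0% were. Acly, Acaca, Fasn, Elovl1 and Elovl5 were not called. The median log2 fold change of the members was -0.28 in Treg against Th17 cells and 0.02 over all tested genes. The libraries of Treg and Th17 cells did not overlap in 8 of the 10 members, which also held for 72.5% of all tested genes.

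**Figure D2:**
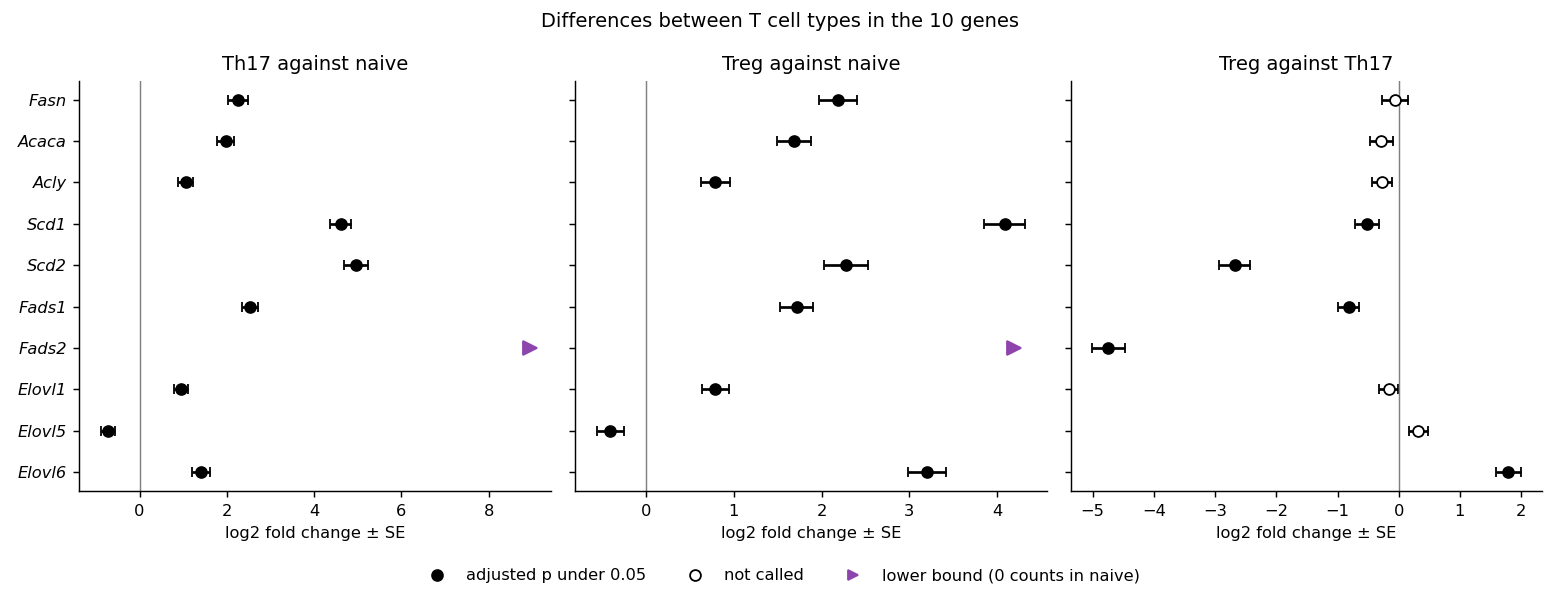
Log2 fold change (x axis) of each gene in 3 comparisons, with bars of 1 approximate standard error. Filled circles passed the edgeR test, open circles did not, and triangles are lower bounds for Fads2, which had 0 counts in naive libraries; 5 genes are open in Treg against Th17 and none in the other panels.

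The genes of precursor supply and synthesis were higher in Treg and Th17 cells than in naive cells and did not pass the test between Treg and Th17 cells. Acly, the source of cytosolic acetyl-CoA (chromosome 11, 100476353 to 100528000, minus strand), had 367 and 381 CPM in Treg libraries 1 and 5, 482 and 420 CPM in Th17 libraries and 222 and 211 CPM in naive libraries. Its libraries were lowest in naive, intermediate in Treg and highest in Th17 cells, with no overlap. Its log2 fold change against naive cells was 0.79 ± 0.17 (SE) in Treg (adjusted p = 0.00153) and 1.06 ± 0.17 in Th17 cells (adjusted p = 8.45e-05). Treg against Th17 cells gave -0.27 with an approximate 95% interval of -0.62 to 0.08 (adjusted p = 0.219).

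Acaca, the carboxylase that commits acetyl-CoA to synthesis (chromosome 11, 84129672 to 84401651, plus strand), had 79.8 and 99.1 CPM in Treg libraries, 120 and 97.6 CPM in Th17 libraries and 32.3 and 23.2 CPM in naive libraries. Treg and Th17 libraries overlapped, and both lay above naive. Acaca rose by 1.69 ± 0.20 on the log2 scale in Treg (adjusted p = 7.76e-06) and by 1.97 ± 0.20 in Th17 cells (adjusted p = 9.33e-07). The Treg against Th17 interval was -0.68 to 0.12. Of the 50-base words in its transcripts, 30.4% also occur in transcripts of other genes, most of them in the processed pseudogene Gm5182. That pseudogene had 217 and 302 counts in Treg, 349 and 321 in Th17 and 109 and 78 in naive libraries, so the level of Acaca is uncertain to the extent that reads were split with it.

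Fasn, the synthase itself (chromosome 11, 120805846 to 120824547, minus strand), had 691 and 692 CPM in Treg libraries, 858 and 591 CPM in Th17 libraries and 173 and 131 CPM in naive libraries. Both Treg libraries lay between the 2 Th17 libraries, and naive libraries lay below all 4. Its log2 fold change was 2.19 ± 0.22 in Treg (adjusted p = 1.86e-06) and 2.25 ± 0.22 in Th17 cells against naive (adjusted p = 7.77e-07). Treg against Th17 cells gave -0.07, with an interval of -0.52 to 0.38. Without Th17 library 1 that value was 0.23 (adjusted p = 0.569), so its sign turned, and it passed in neither fit.

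The stearoyl-CoA desaturases were higher in Treg and Th17 cells than in naive cells. Scd1 (chromosome 19, 44394451 to 44407709, minus strand) had 75.3 and 116 CPM in Treg libraries, 152 and 124 CPM in Th17 libraries and 5.94 and 5.33 CPM in naive libraries. Naive libraries were far below both other types, and the Treg and Th17 libraries lay next to each other without overlap. Scd1 rose by 4.09 ± 0.24 on the log2 scale in Treg (adjusted p = 7.11e-09) and by 4.61 ± 0.24 in Th17 cells (adjusted p = 1.1e-09). Against Th17 cells, Treg cells had a log2 fold change of -0.52 ± 0.20 (adjusted p = 0.0470). That call ended without naive library 1 or 5 (adjusted p = 0.0564 each), without Th17 library 1 (0.305), without Treg library 1 (0.493) and in a fit of the 2 types alone (0.0527).

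Scd2, the second stearoyl-CoA desaturase (chromosome 19, 44293676 to 44306864, plus strand, 87.6 kb from Scd1), had 237 and 426 CPM in Treg libraries, 2135 and 2127 CPM in Th17 libraries and 67.3 and 69.7 CPM in naive libraries. Th17 libraries were highest and nearly equal, Treg libraries were intermediate and uneven, and no types overlapped. Scd2 was 6.42-fold lower in Treg than in Th17 cells (log2 fold change -2.68 ± 0.26, adjusted p = 1.31e-06). Against naive cells the log2 fold change was 2.28 ± 0.25 in Treg (adjusted p = 5.19e-06) and 4.96 ± 0.28 in Th17 cells (adjusted p = 2.88e-09). Per length, as CPM per kilobase of gene length (RPKM) computed from the counts, Scd2 averaged 391 in Th17 cells and stood at percentile 99.6 of the tested genes. Its RPKM averaged 60.8 in Treg and 12.6 in naive cells. Of Scd2's 50-base words, 3.97% are shared with other genes, mostly Scd1, and of Scd1's 4.56%, mostly Scd3, which had at most 10 counts in any library.

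The front-end desaturases, which make polyunsaturated fatty acids, followed with Th17 cells highest. Fads1 (chromosome 19, 10182888 to 10196870, plus strand) had 32.6 and 39.7 CPM in Treg libraries, 66.3 and 61.3 CPM in Th17 libraries and 11.0 CPM in each naive library. The 3 types did not overlap. Fads1 rose by 1.72 ± 0.19 on the log2 scale in Treg (adjusted p = 4.25e-06) and by 2.54 ± 0.19 in Th17 cells (adjusted p = 4.5e-08). It was 1.76-fold lower in Treg than in Th17 cells (log2 fold change -0.82 ± 0.18, adjusted p = 0.00188).

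Fads2, its neighbour 81.4 kb away (chromosome 19, 10064164 to 10101503, minus strand), was abundant in Th17 libraries, low in Treg libraries and not detected in naive libraries. It had 47 and 85 counts in Treg libraries, 2026 and 1654 counts in Th17 libraries and 0 counts in both naive libraries. In CPM these were 2.69 and 4.64 in Treg and 108 and 88.9 in Th17 libraries. A count of 0 allows up to 3 counts per library, or 0.201 CPM on average in naive cells, for counting error alone. Against that floor Fads2 was at least 18.3-fold higher in Treg cells (adjusted p = 1.85e-06) and at least 492-fold higher in Th17 cells (adjusted p = 3.69e-10). Treg cells had 26.8-fold less than Th17 cells (log2 fold change -4.74 ± 0.27, adjusted p = 1.48e-08). Fads3, a related gene, shares 0.152% of Fads2's words.

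The elongases did not move together. Elovl6, which extends palmitate (chromosome 3, 129532355 to 129638495, plus strand), had 172 and 258 CPM in Treg libraries, 62.0 and 62.1 CPM in Th17 libraries and 27.1 and 19.6 CPM in naive libraries. It is the member for which Treg cells stood highest, with no overlap between types. Elovl6 was 3.46-fold higher in Treg than in Th17 cells (log2 fold change 1.79 ± 0.21, adjusted p = 8.00e-06). Against naive cells its log2 fold change was 3.20 ± 0.22 in Treg (adjusted p = 3.71e-08) and 1.41 ± 0.21 in Th17 cells (adjusted p = 5.17e-05). Of its 50-base words, 3.98% are shared, mostly with the pseudogene Gm11295, which had 0 counts in every library.

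Elovl5, the polyunsaturated fatty acid elongase (chromosome 9, 77917364 to 77984519, plus strand), had 126 and 140 CPM in Treg libraries, 97.6 and 116 CPM in Th17 libraries and 169 and 184 CPM in naive libraries. Naive libraries were highest, Treg intermediate and Th17 lowest, with no overlap. In Th17 cells it fell by 0.73 ± 0.16 on the log2 scale (adjusted p = 0.00123). In Treg cells the log2 fold change against naive was -0.41 ± 0.16 at the edge of the threshold (adjusted p = 0.0489). That call held without naive library 1 (adjusted p = 0.0484) and ended without naive library 5 (0.150), Th17 library 1 (0.0815), Th17 library 5 (0.0788), Treg library 1 (0.317) or Treg library 5 (0.125). With total-count scaling it was -0.22 (adjusted p = 0.294), and the authors' deposited table gives -0.39 with an adjusted p of 0.0797. Treg against Th17 cells gave 0.32 with an interval of -0.02 to 0.66.

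Elovl1, which makes very long chains (chromosome 4, 118428093 to 118432953, plus strand), had 79.0 and 70.6 CPM in Treg libraries, 82.9 and 84.8 CPM in Th17 libraries and 42.2 and 44.4 CPM in naive libraries. Treg and Th17 libraries were close and did not overlap with naive libraries or each other. Elovl1 rose by 0.79 ± 0.15 on the log2 scale in Treg (adjusted p = 0.000784) and by 0.95 ± 0.15 in Th17 cells (adjusted p = 9.52e-05). The Treg against Th17 interval was -0.49 to 0.16. Its exons overlap those of the mitotic gene Cdc20 on the other strand by 53 bases, 1.94% of Elovl1's exon bases. Cdc20 had 659 and 1015 counts in Treg, 4268 and 3524 in Th17 and 69 and 53 in naive libraries, and the strand setting of the counting is not stated, so without strand these reads cannot be told apart.

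Per length, the order of the enzymes differed between types. In Treg cells the highest mean RPKM were those of Acly (70.8), Fasn (63.2) and Scd2 (60.8), and the lowest were those of Acaca (5.24) and Fads2 (2.43). In Th17 cells Scd2 led by a wide margin, followed by Acly (85.4 RPKM), Fasn (66.2 RPKM) and Fads2 (65.4 RPKM). Naive cells were led by Elovl5 at 50.2 RPKM, ahead of Acly at 41.0 RPKM and Elovl1 at 15.9 RPKM. The deposited length of Fads2 is 1508 bases, against 3295 exon bases in GENCODE M21, and with the longer one its level in Th17 cells is 29.9 RPKM.

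Ratios of paired enzymes within a library, per length, do not depend on the scaling between libraries. Scd2 over Scd1 was 2.79 and 3.25 in Treg libraries, 12.5 and 15.3 in Th17 libraries and 10.03 and 11.6 in naive libraries. Treg libraries were lowest, and Th17 and naive libraries did not overlap each other. Fads2 over Fads1 was 0.189 and 0.268 in Treg libraries, 3.75 and 3.33 in Th17 libraries and 0 in both naive libraries. With the GENCODE M21 lengths the mean ratio was 0.146 in Treg and 2.25 in Th17 cells, an alternative chosen after seeing the data.

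Elovl6 over Elovl5 was 0.744 and 1.01 in Treg libraries, 0.348 and 0.293 in Th17 libraries and 0.0877 and 0.0582 in naive libraries. Elovl1 over Elovl5 was 0.808 and 0.651 in Treg libraries, 1.10 and 0.945 in Th17 libraries and 0.322 and 0.312 in naive libraries. Both ratios were lowest in naive cells, where Elovl5 was highest, and neither overlapped between types. Fasn over Acaca was 13.5 and 10.9 in Treg libraries, 11.1 and 9.45 in Th17 libraries and 8.35 and 8.80 in naive libraries, with Treg and Th17 overlapping. An exact two-sided permutation test with 2 libraries against 2 cannot give a p below 0.333, so these ratios are descriptions.

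**Figure D3:**
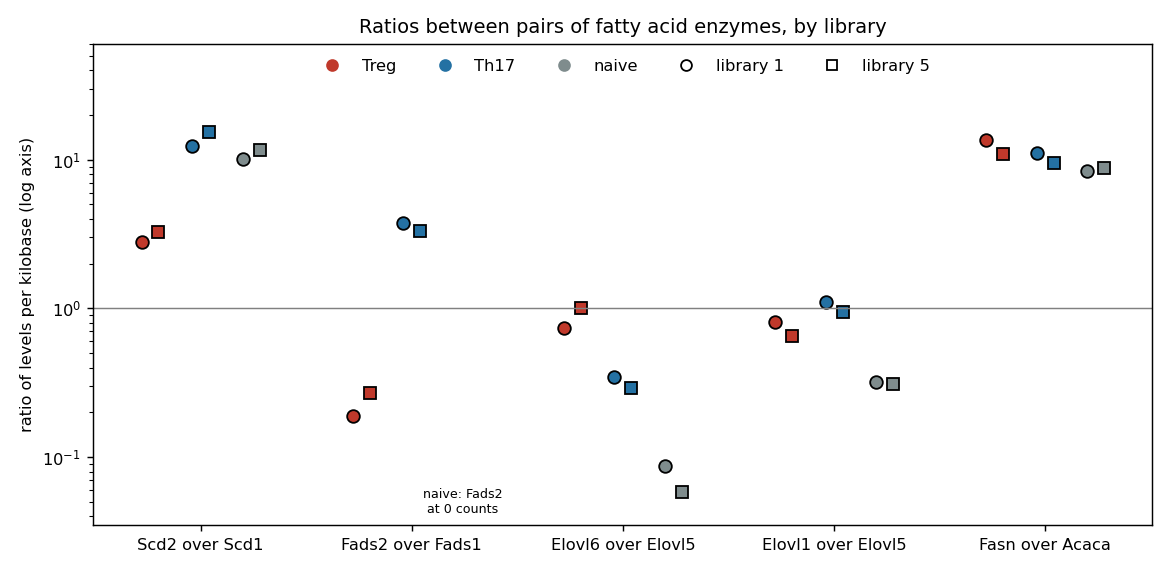
Ratio of the levels per kilobase of 5 pairs of enzymes (y axis, log scale) in each library, coloured by Treg, Th17 and naive cells, with circles for library 1 and squares for library 5. Scd2 over Scd1 is lowest in Treg libraries and Fads2 over Fads1 highest in Th17 libraries; the naive value of Fads2 over Fads1 is 0 and is not drawn.

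The 2 Treg libraries differed from each other more for some members than for others. Library 5 had 1.80 times the level of library 1 for Scd2, 1.72 times for Fads2, 1.55 times for Scd1 and 1.51 times for Elovl6, while Fasn was equal at 1.00. A list of 10 cell cycle genes also differed, summing to 1144 CPM in Treg library 1 and 1751 CPM in Treg library 5. In Th17 libraries it summed to 4399 and 4144 CPM, and in naive libraries to 365 and 458 CPM. In that list, 9 of 10 genes were called higher in Treg than naive cells, 10 of 10 higher in Th17 than naive cells, and 9 of 10 lower in Treg than Th17 cells. Acly, Scd1, Scd2, Fads1, Fads2 and Elovl1 had the same order of types, with Th17 highest and naive lowest, and the part of cell division in their levels was not tested.

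The profile of each member over the 6 libraries was compared with that of the other 15542 tested genes, by Euclidean distance between log2 CPM centred on the gene's mean. Nearest to Fasn were Arhgef12 (distance 0.362), Slc7a5 (0.370) and Twsg1 (0.388). For Scd1 they were Wee1 (0.375), Nbl1 (0.728) and Pgpep1 (0.732), and for Scd2 they were Ryk (0.363), Gm33699 (0.374) and Ect2 (0.390). Of these, Slc7a5 is an amino acid transporter, Wee1 a kinase that holds back mitosis and Ect2 a regulator of cytokinesis. The other genes are given by name only, and a shared function of the nearest genes was not tested.

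No member was the nearest gene of another member. The nearest member to Fasn was Acaca, at rank 30 among all genes, and Acaca's was Fasn at rank 67. Acly and Elovl1 were each other's nearest members, at ranks 64 and 54. Scd1 and Scd2 were each other's nearest members only at ranks 587 and 704, Fads1 was nearest to Acaca at rank 155, Fads2 to Scd2 at rank 247 and Elovl6 to Fasn at rank 494. Elovl5 had its nearest member, Elovl1, at rank 9534. These ranks describe 6 libraries of 3 types.

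Other genes of the pathway moved less uniformly. The counts of every list are read beside the shares of all tested genes. Against naive cells these were 23.6% higher and 19.9% lower in Treg and 29.3% and 28.4% in Th17 cells. In Treg against Th17 cells they were 19.0% higher and 19.4% lower. Counts near these shares are not a result about a list. Of 6 further genes of precursor supply and cytosolic synthesis, 4 were tested, and 2 were higher and 2 lower in Treg, and 2 higher and 1 lower in Th17 against naive cells. Slc25a1, the mitochondrial citrate exporter, had 63.1 and 53.2 CPM in Treg, 102 and 88.5 CPM in Th17 and 15.6 and 12.7 CPM in naive libraries. Treg cells were intermediate, with a log2 fold change of 2.03 ± 0.18 against naive (adjusted p = 5.72e-07) and -0.71 ± 0.17 against Th17 cells (adjusted p = 0.00412). In Th17 against naive cells it was 2.74 ± 0.19 (adjusted p = 1.51e-08). Acss2, which makes acetyl-CoA from acetate, had the opposite pattern, with 19.5 and 18.7 CPM in Treg, 16.5 and 15.2 CPM in Th17 and 75.3 and 82.5 CPM in naive libraries. It fell by 2.05 ± 0.18 in Treg (adjusted p = 3.5e-07) and by 2.32 ± 0.18 in Th17 cells on the log2 scale (adjusted p = 5.88e-08).

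In the mitochondrial fatty acid synthesis pathway, which feeds lipoate synthesis, 8 of 9 listed genes were in the table and tested. None was called in Treg against naive or Treg against Th17 cells by edgeR, and in Th17 against naive cells 1 was higher and 1 lower. With total-count scaling 1 was higher in Treg cells, and 4 were higher and 0 lower in Th17 cells, against naive cells. Every count of 0 that this edgeR test gave in a list here was also 0 at an unadjusted p under 0.05 and with DESeq2 and limma-voom. Of 7 further desaturation genes tested, 2 were higher in Treg and 4 in Th17 cells than naive, 0 and 1 were lower, and 1 was higher and 4 lower in Treg than Th17 cells. Cyb5b, a cytochrome b5, rose in Treg cells by 0.42 ± 0.15 (adjusted p = 0.0373) and in Th17 cells by 1.41 ± 0.15 (adjusted p = 2.34e-06) on the log2 scale. Of 8 further genes of the elongation cycle tested, 0 were higher and 1 lower in Treg, and 3 higher and 0 lower in Th17 against naive cells, while 0 were higher and 2 lower in Treg than Th17 cells. Total-count scaling made this 1 higher and 1 lower in Treg, and 5 higher and 0 lower in Th17, against naive cells. Elovl7 had a log2 fold change of -2.47 ± 0.34 in Treg against Th17 cells (adjusted p = 4.29e-05), and Elovl4 had 0 counts in all Treg and naive libraries and was at least 6.39-fold lower in Treg than Th17 cells.

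Of 15 tested transcriptional regulators of lipid synthesis, 5 were higher and 1 lower in Treg against naive cells, and 6 higher and 6 lower in Th17 against naive cells, which total-count scaling made 7 and 3 in Th17 cells. Against Th17 cells, Treg cells had 6 of them higher and 3 lower, which total-count scaling made 4 and 4. The list's median log2 fold change was 0.15 in Treg and -0.28 in Th17 against naive cells, and 0.06 in Treg against Th17 cells. Srebf1, the sterol regulatory factor best known for fatty acid genes, had 155 and 160 CPM in Treg, 340 and 295 CPM in Th17 and 114 and 81.3 CPM in naive libraries. Treg cells were lower than Th17 cells (log2 fold change -1.01 ± 0.18, adjusted p = 0.00045), and Srebf1 was higher than in naive cells in Treg (0.69 ± 0.18, adjusted p = 0.00671) and Th17 cells (1.70 ± 0.18, adjusted p = 2.2e-06). The types did not overlap.

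Srebf2, its relative best known for cholesterol genes, had 540 and 489 CPM in Treg, 515 and 470 CPM in Th17 and 258 and 192 CPM in naive libraries. Treg and Th17 libraries overlapped (log2 fold change 0.06 ± 0.19, adjusted p = 0.823), and both were above naive. The escort protein gene Scap and the retention factor gene Insig1 were likewise higher in both than in naive cells, by 0.77 and 1.92 in Treg and 0.84 and 2.21 in Th17 cells on the log2 scale. Rxra, a nuclear receptor partner, was lower in Treg than Th17 cells (-1.04 ± 0.24), while Usf1 (0.79 ± 0.15) and Rxrb (0.59 ± 0.16) were higher. Mlx, the partner of the carbohydrate-responsive factors, was lower than in naive cells in Treg (-0.88 ± 0.18) and Th17 cells (-1.01 ± 0.18).

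Among 8 tested genes that act on acetyl-CoA carboxylase, Mid1ip1, which promotes its polymerisation, had 15.9 and 18.6 CPM in Treg, 50.4 and 44.0 CPM in Th17 and 8.79 and 8.85 CPM in naive libraries. Its log2 fold change was 0.97 ± 0.20 in Treg (adjusted p = 0.00146) and 2.42 ± 0.20 in Th17 against naive cells (adjusted p = 1.72e-07), and -1.45 ± 0.19 in Treg against Th17 cells (adjusted p = 3.43e-05). Of the list, 1 gene was higher and 2 lower in Treg, and 2 higher and 4 lower in Th17 against naive cells, and 1 higher and 3 lower in Treg than Th17 cells. Total-count scaling made this 4 higher and 1 lower in Th17 against naive cells. Prkab1 and Prkab2, which encode beta subunits of the inhibitory kinase AMPK, had log2 fold changes of -0.46 ± 0.16 and -1.06 ± 0.23 in Treg and -0.79 ± 0.16 and -0.73 ± 0.23 in Th17 against naive cells.

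Cholesterol synthesis was higher in Treg and Th17 cells than in naive cells in most of its genes. Whether these genes and the members share a control was not tested. Of 21 tested genes, 18 were higher in Treg and 20 in Th17 cells than in naive cells, and 0 were lower. In Treg against Th17 cells 0 were higher and 13 lower, with a median log2 fold change of -0.72. Their summed level was 1396 and 1830 CPM in Treg, 2806 and 2226 CPM in Th17 and 545 and 619 CPM in naive libraries, without overlap between types. Sqle, a rate-limiting oxygenase, had log2 fold changes of 2.32 ± 0.20 in Treg and 3.08 ± 0.20 in Th17 against naive cells.

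Genes that use, take up or esterify fatty acids were counted in the same comparisons. Of 17 tested beta-oxidation genes, 7 were higher and 1 lower in Treg, and 4 higher and 3 lower in Th17 against naive cells, while 5 were higher and 2 lower in Treg than Th17 cells. Total-count scaling made this 9 and 0 in Treg and 8 and 2 in Th17 against naive cells. Cpt1a, the gate of mitochondrial fatty acid import, had 164 and 119 CPM in Treg, 62.9 and 83.0 CPM in Th17 and 58.5 and 49.9 CPM in naive libraries. Treg libraries were above the others, with a log2 fold change of 0.95 ± 0.19 against Th17 (adjusted p = 0.00109) and 1.38 ± 0.19 against naive cells (adjusted p = 4.63e-05). Of 6 tested uptake and binding genes, 4 were higher and 1 lower in Treg, and 5 higher and 1 lower in Th17 against naive cells, with 1 higher and 3 lower in Treg than Th17 cells. Mfsd2a, a lysophospholipid transporter, was lower in Treg than Th17 cells (-2.18 ± 0.27, adjusted p = 1.82e-05) and Slc27a1, a fatty acid transport protein, higher (0.68 ± 0.19, adjusted p = 0.0102). Of 14 tested glycerolipid synthesis genes, 5 were higher in Treg and 8 in Th17 cells than naive, 0 and 1 were lower, and 3 were higher and 5 lower in Treg than Th17 cells. Among these, Agpat4 had a log2 fold change of -2.23 ± 0.26 and Lpin2 of 2.30 ± 0.24 in Treg against Th17 cells.

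**Figure D4:**
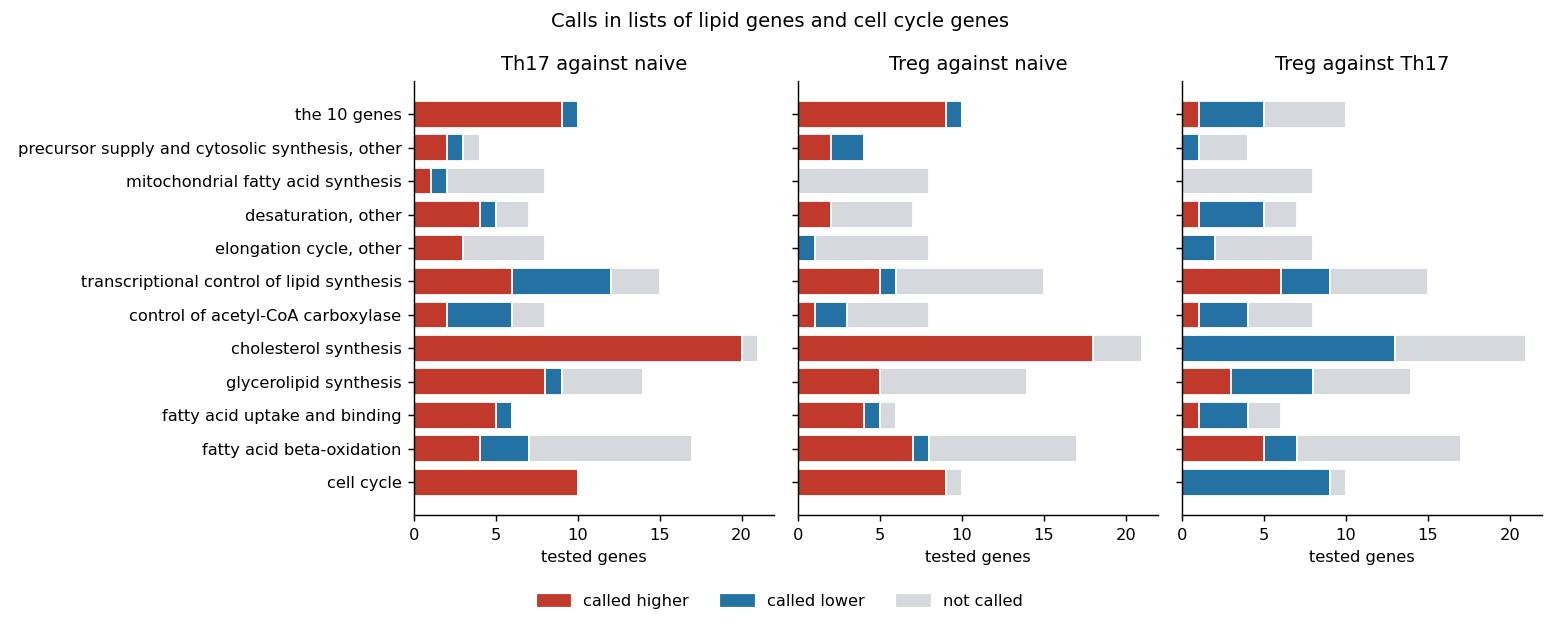
Number of tested genes (x axis) in each list that edgeR called higher or lower, or did not call, in 3 comparisons. The 10 genes and the cholesterol synthesis list are mostly higher than in naive cells in both Treg and Th17 cells, and 13 of 21 cholesterol genes are lower in Treg than Th17 cells.

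Markers of other cell types were present at levels that differed between the types, and some sums exceeded the level of a member in the same libraries. The 5 adipocyte markers summed to at most 0.0572 CPM in Treg, 0.537 CPM in Th17 and 0.208 CPM in naive libraries, with Lep at 0 in all. Hepatocyte markers summed to 4.92 to 8.30 CPM in Treg, 0 to 0.107 CPM in Th17 and 0.0646 to 8.30 CPM in naive libraries. B cell markers summed to 4.86 to 6.53 CPM in Treg, 4.82 to 6.02 CPM in Th17 and 44.4 to 54.3 CPM in naive libraries, and myeloid markers summed to 1.49 to 3.28 CPM in Treg, 4.55 to 5.16 CPM in Th17 and 23.3 to 26.6 CPM in naive libraries. The thymic epithelium list summed to 68.8 to 81.7 CPM in Treg, 0 to 0.0536 CPM in Th17 and 1.87 to 8.65 CPM in naive libraries. In Treg libraries nearly all of it was Epcam, at 80.5 and 68.7 CPM, while Foxn1, which defines that epithelium, was at 0 in every library. Immature thymocyte markers summed to 17.2 to 22.8 CPM in Treg, 3.21 to 10.5 CPM in Th17 and 57.3 to 74.1 CPM in naive libraries, and erythroid markers to at most 8.41 CPM in Treg, 23.6 CPM in Th17 and 1.66 CPM in naive libraries. The part of such cells in the results was not tested.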

How the data were processed

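RNA libraries of wild-type Treg, Th17 and naive T cells were analysed from 1 table of 54532 genes. Per the submitters' processing notes, cutadapt, STAR, DESeq2 and the build mm10 were used; no versions, counting tool or strand setting are stated there. The authors deposited raw counts per gene and library, whole numbers that were not normalized, with gene lengths and coordinates. Per the file headers, the deposited log2 fold changes and p-values are the authors' comparisons with naive cells, and they are printed only where named as theirs. The 6 other columns of per-library values were not used. Columns are numbered 1 and 5 and sample titles otherwise, so columns were matched to cell types only.

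Counts were tested with edgeR 4.0.16 in R 4.3.3 (quasi-likelihood F-test, TMM scaling, low counts removed by filterByExpr at 10, 1 fit over 6 libraries with 3 residual degrees of freedom), and the model was tested on simulated data. Errors of log2 fold changes are approximate and derive from the F statistic. The p-values and intervals use edgeR's moderated degrees of freedom, which borrow from the spread of all tested genes. DESeq2 1.42.0 and limma 3.58.1 served as alternatives. Within a type, libraries varied beyond counting noise (chi-square over its degrees of freedom 16.5 in Treg, 19.4 in Th17 and 37.0 in naive libraries). A gene at 0 counts was set to a floor of 3 counts per library; such bounds cover counting error only. RPKM were computed from the counts and the deposited lengths. Promoter windows came from RefSeq on GRCm38.p6. Transcripts of GENCODE M21 were used for shared words of 50 bases and exon overlaps.

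All members are named; from other lists, the genes with the largest called change in each direction per comparison (at most 2) and called transcriptional regulators may be named, and the 3 nearest profiles for Fasn, Scd1 and Scd2. Members and lists were chosen with earlier results of these data known. Values of named genes in comparisons other than those that selected them, and Epcam, Foxn1, Lep, Cdc20, Rag1, Rag2, Ptcra, Dntt, Cd1d1 and the related genes, were added after their values were seen. A gene that the naming rule lists for the check of labels is not reported here.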

Additional observations from a re-analysis of the deposited data

How the results depend on the processing

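The 30 fold changes of the members were refitted under 13 settings: other scaling, no filter, DESeq2, limma-voom, each comparison's 2 types alone, a replicate block and each library left out. In 376 of 390 fits the direction and the side of the threshold were kept, and the cause of the other changes was not tested. Elovl5 in Treg against naive cells lost its call with total-count scaling (-0.22), with no filter (-0.38) and with the 2 types alone (-0.43, adjusted p = 0.0511), so that 0 members were called lower in each. Leaving out 1 library gave Elovl5 values of -0.48 to -0.32 and 0 to 1 members called lower. Scd1 in Treg against Th17 cells lost its call with the 2 types alone (-0.53) and ranged from -0.88 to -0.23 with 1 library left out, and Fasn in that comparison ranged from -0.31 to 0.23, turning its sign at 0.23 without Th17 library 1. The summed level of the members in naive cells was 658 CPM with total-count scaling. With GENCODE M21 exon lengths, added after seeing the data, Fads2 over Fads1 was 0.146 in Treg and 2.25 in Th17 cells.

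Total-count scaling moved the median log2 fold change of all genes by 0.18 (Treg) and 0.24 (Th17) relative to naive, and by -0.05 for Treg relative to Th17. The share of calls that were higher became 67.0% for Treg and 62.6% for Th17 against naive cells, beside 54.3% and 50.8% with TMM. The labels do not say whether library numbers pair the samples. Deviations of same-numbered libraries correlated at 0.126 for Treg and naive, 0.00466 for Th17 and naive and 0.0334 for Treg and Th17. With 2 libraries per type, these values cannot decide whether the numbers mark pairs. With the replicate number as a block, 6974 genes were called in Treg and 9116 in Th17 against naive cells and 6296 in Treg against Th17 cells, beside 6748, 8973 and 5974 without it. The block changed no member's call. With 2 libraries per type, differences within the printed intervals between Treg and Th17 cells were not excluded. Fitted folds of Fads2 against naive cells depend on the prior count.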
